A study of Rattus norvegicus with 7 samples.

Results

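The 32 genes described here run cholesterol synthesis, uptake, transport and efflux. They were chosen by symbol for their known roles in the pathway, and each of the 32 matched 1 of the 32852 gene rows. Genes and roles were chosen with earlier results of these data known, so shares set beside those of all genes are descriptive. Of these genes, 18 encode enzymes of synthesis, 5 control the SREBP factors, 5 belong to LXR sensing and efflux, and 4 move or store sterol inside the cell.

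RNA was sequenced from oligodendrocyte progenitor cells, the precursors of myelinating cells, which were taken from wild-type rats at postnatal day 7 and grown in 12-well plates at about 40000 cells per well. The 3 siRNLTR12-int libraries came from cells transfected to silence RNLTR12-int, a retrotransposon of the rat genome. The 4 control libraries came from cells given a control siRNA. Both groups received Lipofectamine RNAiMAX and moved to differentiating medium at transfection, where they stayed for 4 to 5 days. The titles number biological replicates but give no animal, culture or day for them, so p-values measure only the spread between these libraries, which may be technical. Levels of RNLTR12-int were not analysed here, and the knockdown therefore went unchecked.

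Cells build cholesterol from acetyl-CoA through mevalonate, farnesyl diphosphate and squalene. When membrane sterol is low, the SCAP protein carries SREBP factors out of the endoplasmic reticulum and the enzyme genes are transcribed; INSIG proteins hold SCAP back when sterol is plentiful. When sterol is in excess, oxysterols activate the LXR receptors, which turn on exporters. Myelin membrane is rich in cholesterol, brain makes nearly all its own, and both astrocytes and oligodendrocytes contribute.

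The libraries held 22523873 to 61803693 recovered reads, and the member with the fewest reads in any library, Insig2, had 48 there (exact 95% Poisson interval 35.4 to 63.6, counting error only). Values are normalised counts, that is, reads divided by 1 size factor per library, and levels are not compared between genes because no transcript lengths enter them. The cultures differed in cell type markers within both siRNA groups. Summed normalised counts of 14 astrocyte markers were 181031 to 198172 in 4 libraries (siRNLTR12-int replicates 2 and 3, control replicates 3 and 4), called astrocyte-poor here. The other 3 (siRNLTR12-int replicate 1, control replicates 1 and 2), called astrocyte-rich, had 659591 to 807821. Microglia markers (13 of 14 listed genes found) summed to 2403 to 3205 in the astrocyte-poor libraries and 7036 to 22760 in the astrocyte-rich ones. Sums for 9 vascular and fibroblast markers were 1620 to 1727 in the poor and 3154 to 4185 in the rich libraries, with Cldn5 at 0 in all 7. Pdgfrb alone had 652 to 914 in the poor and 2028 to 2808 in the rich libraries. Only 3 of the 9 were lower in every poor library than in every rich one. Control replicate 2, a rich library, had the lowest Col1a1 (157) and Acta2 (15.2) of all 7, so the set did not divide as a whole. Neuron markers (11) summed to 30519 to 35094 in the poor and 26692 to 28540 in the rich libraries. Most of that sum was Map2, with 25204 to 29464 in the poor and 21359 to 25500 in the rich libraries. Of the 11, 4 were higher and 1 lower in every poor library than in every rich one. By mean log2(normalised count + 1), control replicate 2, a rich library, was the highest of all 7 (8.74). The 14 oligodendrocyte lineage markers summed to 174452, 291269 and 273832 in siRNLTR12-int replicates 1 to 3 and to 268787, 1039978, 392351 and 473253 in control replicates 1 to 4. In these mixed cultures, fewer cells of a type and less RNA per cell cannot be told apart.

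Between the siRNA groups, 0 of the 32 genes passed limma over all genes tested (Benjamini-Hochberg adjusted p under 0.05), against 0% of the 18225 genes tested (those whose normalised counts averaged 10 or more). At an unadjusted p under 0.05 the members numbered 0 with limma, 0 with edgeR and 0 with DESeq2, where 6.3% of all genes tested did so with limma. No member passed in the authors' deposited table (0 of 32), against 0.752% of its genes with an adjusted p. No siRNLTR12-int range lay wholly above or wholly below the control range in any member, against 4.09% and 3.59% of all genes. A wider pattern among the members went with astrocyte marker levels, as the heat map of all members shows.

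**Figure D1:**
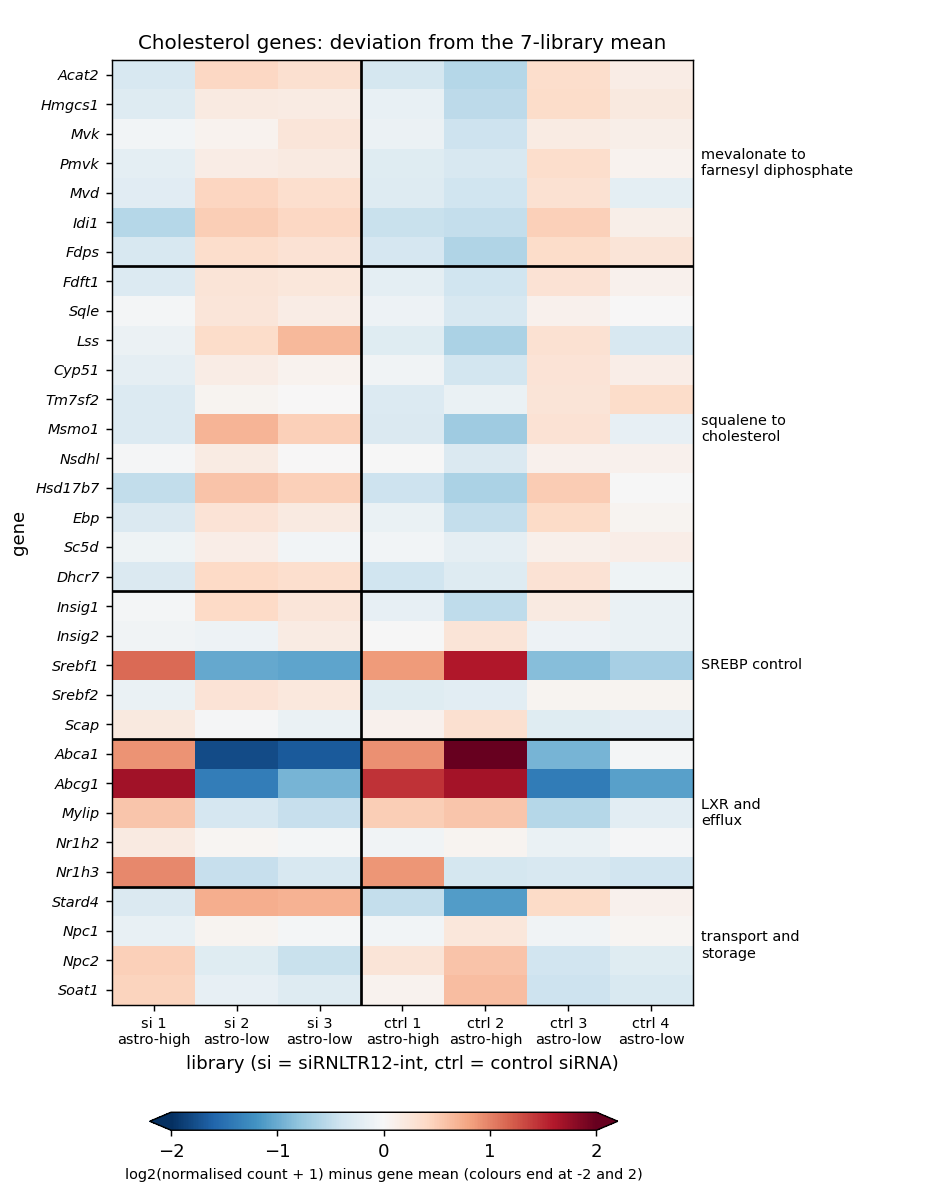
Heat map of log2(normalised count + 1) minus each gene's mean over the 7 libraries, for the 32 genes (rows, by role) in siRNLTR12-int (si, left) and control (ctrl, right) libraries; astro-low and astro-high mark the libraries poor and rich in astrocyte markers. Of 18 synthesis enzymes, 16 were higher in every astro-low library than in every astro-high library, while Srebf1, Abca1 and Abcg1 ran the other way.

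The enzymes of synthesis moved together across libraries. In 16 of 18, every astrocyte-poor library lay above every astrocyte-rich library, whichever siRNA it had received, against 17.1% of all genes tested. None of the 18 lay wholly the other way, against 18.6% of all genes. The 2 exceptions, Lss and Sc5d, also had higher means in the astrocyte-poor libraries. The excess of the astrocyte-poor mean ran from 1.14-fold in Sc5d to 1.88-fold in Hsd17b7. On the log2 scale the median difference between the sets was 0.52 over the 18 enzymes and 0.01 over all genes tested. The sets were made from the mean level of the 14 astrocyte markers, so a division of those markers follows from the split. Of the cell type markers, 12 of 14 astrocyte and 11 of 13 microglia genes were lower in every astrocyte-poor library than in every astrocyte-rich one. Of 14 oligodendrocyte lineage markers, 4 lay the other way, as the enzymes did, and these are genes of progenitors and the lineage at large. Pdgfra, a growth factor receptor of progenitors, had 38097 to 53301 normalised counts in astrocyte-poor and 13936 to 16580 in astrocyte-rich libraries. Cspg4 had 20224 to 46972 in the poor and 6702 to 11394 in the rich libraries, Olig2 had 22134 to 26395 in the poor and 9854 to 13716 in the rich, and Olig1 had 40714 to 50429 in the poor and 27410 to 30602 in the rich. The part of any of these markers in the split of the enzymes was not tested.

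Hmgcs1, which makes the HMG-CoA that feeds the mevalonate step, had 41588, 56755 and 56108 normalised counts in siRNLTR12-int replicates 1 to 3 and 45054, 34694, 64637 and 57227 in control replicates 1 to 4. The 2 lowest values of the controls and the lowest after siRNLTR12-int were the 3 astrocyte-rich libraries. Its siRNA difference was 0.06 on the log2 scale (SE 0.24). Idi1, the isomerase that readies the isoprene unit for chain building, had 6715 to 8733 normalised counts in astrocyte-poor libraries and 4158 to 4571 in astrocyte-rich ones. Fdps, which joins these units into farnesyl diphosphate, had 9415 to 10188 in the astrocyte-poor and 5220 to 6327 in the astrocyte-rich libraries. Among the enzymes after squalene, Hsd17b7, a ketoreductase that acts on sterol intermediates, had 3138 to 4709 in the astrocyte-poor and 2043 to 2385 in the astrocyte-rich libraries. Each of these 3 genes showed a gap between the sets with no library in it.

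The upstream windows of these enzymes were read for the motifs of the factors that SREBP is known to work with, since the genes moved together. Windows from RefSeq (build GRCr8) run from 250 bases before to 50 after the annotated start, and 27 of the 32 members had one. The NF-Y box CCAAT, on either strand, was in 12 of 15 synthesis windows (80%), in 37.1% of the 11328 windows of genes tested and in 37.7% of all 27457 windows. It was also in 4 of 5 windows of SREBP control genes, 1 of 4 of LXR and efflux genes and 2 of 3 of transport and storage genes. The Sp1 box GGGCGG was in 13 of 15 (86.7%), against 59.9% of windows of genes tested and 34.9% of all windows. It was also in 4 of 5 windows of SREBP control, 2 of 4 of LXR and efflux and 3 of 3 of transport and storage genes. The E-box CACGTG was in 1 of 15 synthesis windows (6.67%) and 2 of 5 of SREBP control genes, against 8.87% of windows of genes tested. In the LXR and efflux genes it was in 1 of 4, and in transport and storage genes in 0 of 3. The sterol regulatory element, searched as TCACNCCAC on both strands, was in 0 of 15 and in 1.1% of windows of genes tested. That share is too low for anything to be read from the 0. The LXR element, searched by script as any pair of the half-site AGGTCA and its variants GGGTCA and also AGTTCA with 4 bases between, was in 0 of the 4 windows of the LXR and efflux genes and in 0.0618% of windows of genes tested, so rare that nothing can be read from the 0. A match is a string of letters, not a shown binding site, and its absence says only that those letters are not in the window.

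The 150 bases before the start are given for the 4 enzymes with a window whose levels differed most between the sets (Hsd17b7, Idi1, Msmo1, Fdps), then for Abca1, Srebf1 and Mylip, which differed most in the other direction among members with a window. Each reads 5′ to 3′ toward the gene, with NF-Y and Sp1 boxes of either strand in capitals. In GRCr8 they lie at chr13:84722755-84722904, reverse strand (Hsd17b7), chr17:66547525-66547674, reverse strand (Idi1), chr16:29746963-29747112, forward strand (Msmo1), chr2:176804817-176804966, reverse strand (Fdps), chr5:72596474-72596623, reverse strand (Abca1), chr10:45529165-45529314, reverse strand (Srebf1) and chr17:19514472-19514621, reverse strand (Mylip).
Hsd17b7: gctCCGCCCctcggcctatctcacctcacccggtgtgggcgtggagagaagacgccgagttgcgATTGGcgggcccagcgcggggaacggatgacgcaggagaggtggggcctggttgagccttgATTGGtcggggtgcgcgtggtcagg
Idi1: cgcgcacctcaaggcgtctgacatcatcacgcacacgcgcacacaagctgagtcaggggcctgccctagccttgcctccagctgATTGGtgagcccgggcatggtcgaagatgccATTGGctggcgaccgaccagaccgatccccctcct
Msmo1: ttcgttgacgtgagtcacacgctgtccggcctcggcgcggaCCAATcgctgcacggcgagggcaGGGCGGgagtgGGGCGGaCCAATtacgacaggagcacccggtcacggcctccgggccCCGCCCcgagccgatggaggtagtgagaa
Fdps: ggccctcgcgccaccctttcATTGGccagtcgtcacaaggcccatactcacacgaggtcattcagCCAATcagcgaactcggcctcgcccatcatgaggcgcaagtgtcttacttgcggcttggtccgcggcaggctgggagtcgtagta
Abca1: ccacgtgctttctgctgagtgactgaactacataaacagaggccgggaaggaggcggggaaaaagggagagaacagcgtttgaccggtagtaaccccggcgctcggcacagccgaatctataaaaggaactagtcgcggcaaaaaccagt
Srebf1: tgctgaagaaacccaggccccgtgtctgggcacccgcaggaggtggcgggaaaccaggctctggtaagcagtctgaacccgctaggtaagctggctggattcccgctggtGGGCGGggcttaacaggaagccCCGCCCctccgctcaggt
Mylip: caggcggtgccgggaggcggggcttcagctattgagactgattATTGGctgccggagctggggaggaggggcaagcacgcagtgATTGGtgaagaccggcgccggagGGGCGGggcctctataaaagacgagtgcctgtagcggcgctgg

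Each of these 4 enzyme stretches carries 2 NF-Y boxes, and so does that of Mylip, which moved the other way. Over all 15 enzymes with a window, 7 stretches of this length held at least 2 NF-Y boxes (46.7%, against 7.36% of those of genes tested) and 12 held at least 1 (80%, against 25.7%). The stretches of Acat2, Dhcr7 and Cyp51 held 0, although the levels of Acat2 differed between the sets nearly as much (0.72 on the log2 scale) as those of Fdps (0.74). The Abca1 stretch has 0 boxes of either kind, and that of Srebf1 has 2 Sp1 boxes and 0 NF-Y boxes. No boxes overlapped in the stretches printed above, but the 2 Sp1 boxes of the Dhcr7 stretch, which is not printed, did.

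Between the siRNA groups the enzymes differed by little. Over the 18, 16 log2 differences were above 0 (88.9%), where 51% of all genes tested were, and the median was 0.17 against 0.01 over all genes. Standard errors of single enzymes ran from 0.12 to 0.35. Since 2 of 3 siRNLTR12-int libraries but 2 of 4 controls were astrocyte-poor, the difference was also taken within each set. The median was 0.04 in the 4 astrocyte-poor libraries (12 of 18 above 0) and 0.07 in the 3 astrocyte-rich ones (16 of 18 above 0), where siRNLTR12-int had 1 library. Without control replicate 2 the median over the other 6 libraries was 0.02.

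Lss and Msmo1 had the largest differences of the enzymes. Lss (ENSRNOG00000054549), which closes squalene epoxide into lanosterol, the first sterol, had 9117, 12774 and 15485 normalised counts in siRNLTR12-int replicates 1 to 3 and 8369, 6362, 12246 and 7912 in control replicates 1 to 4. The siRNLTR12-int mean was 12459 ± 3196 (SD, n = 3) and the control mean 8722 ± 2501 (SD, n = 4), a log2 difference of 0.52 with an SE of 0.26 (limma adjusted p = 0.841). The groups overlapped, because control replicate 3 was above siRNLTR12-int replicate 1.

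Msmo1 (ENSRNOG00000032297), the oxidase that begins removal of the C4 methyl groups, had 12330, 23699 and 20599 after siRNLTR12-int and 12171, 9050, 18177 and 13273 in controls. The 2 highest values were the astrocyte-poor siRNLTR12-int libraries, and siRNLTR12-int replicate 1 lay among the controls. Its log2 difference was 0.51 (SE 0.30, limma adjusted p = 0.89).

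Sqle, squalene epoxidase and a slow step of the pathway, had 7523, 9174 and 8581 normalised counts in siRNLTR12-int and 7216, 6211, 8199 and 7820 in control libraries. Its log2 difference was 0.20 (SE 0.13, limma adjusted p = 0.903). Mvd, the decarboxylase that yields isopentenyl diphosphate, had 2812, 4409 and 4162 after siRNLTR12-int and 2760, 2490, 4056 and 2870 in controls (log2 0.32, SE 0.22). Compared within each set, the siRNLTR12-int libraries of Lss, Msmo1, Sqle and Mvd all lay above the controls. These were 4 of 18 enzymes (22.2%), where 14.5% of all genes tested did so. In the astrocyte-rich set siRNLTR12-int had 1 library, and 2 genes were close there. Msmo1 had 12330 against 12171 in control replicate 1, and Mvd had 2812 against 2760.

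Acat2, the thiolase that starts the pathway, had 8954, 14807 and 13928 normalised counts after siRNLTR12-int and 8719, 7510, 14158 and 12392 in controls (log2 0.24, SE 0.27). Mvk, mevalonate kinase, had 1408, 1532 and 1734 after siRNLTR12-int and 1355, 1101, 1646 and 1588 in controls (log2 0.14, SE 0.16). In both genes the lowest siRNLTR12-int library fell inside the control range. The remaining enzymes with a positive difference ranged from 0.02 in Cyp51, the sterol demethylase, to 0.33 in Hsd17b7. Between these lay Pmvk (0.08), Nsdhl (0.08), Ebp (0.09), Fdft1 (0.13), Fdps (0.19), Idi1 (0.19) and Dhcr7 (0.26), all on the log2 scale. Tm7sf2, a sterol reductase, and Sc5d, a sterol desaturase, had -0.13 and -0.01. The sign turned when single libraries were left out in Hmgcs1, Pmvk, Idi1, Cyp51, Nsdhl, Ebp and Sc5d, and for Cyp51 also with upper-quartile scaling (-0.0011).

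**Figure D2:**
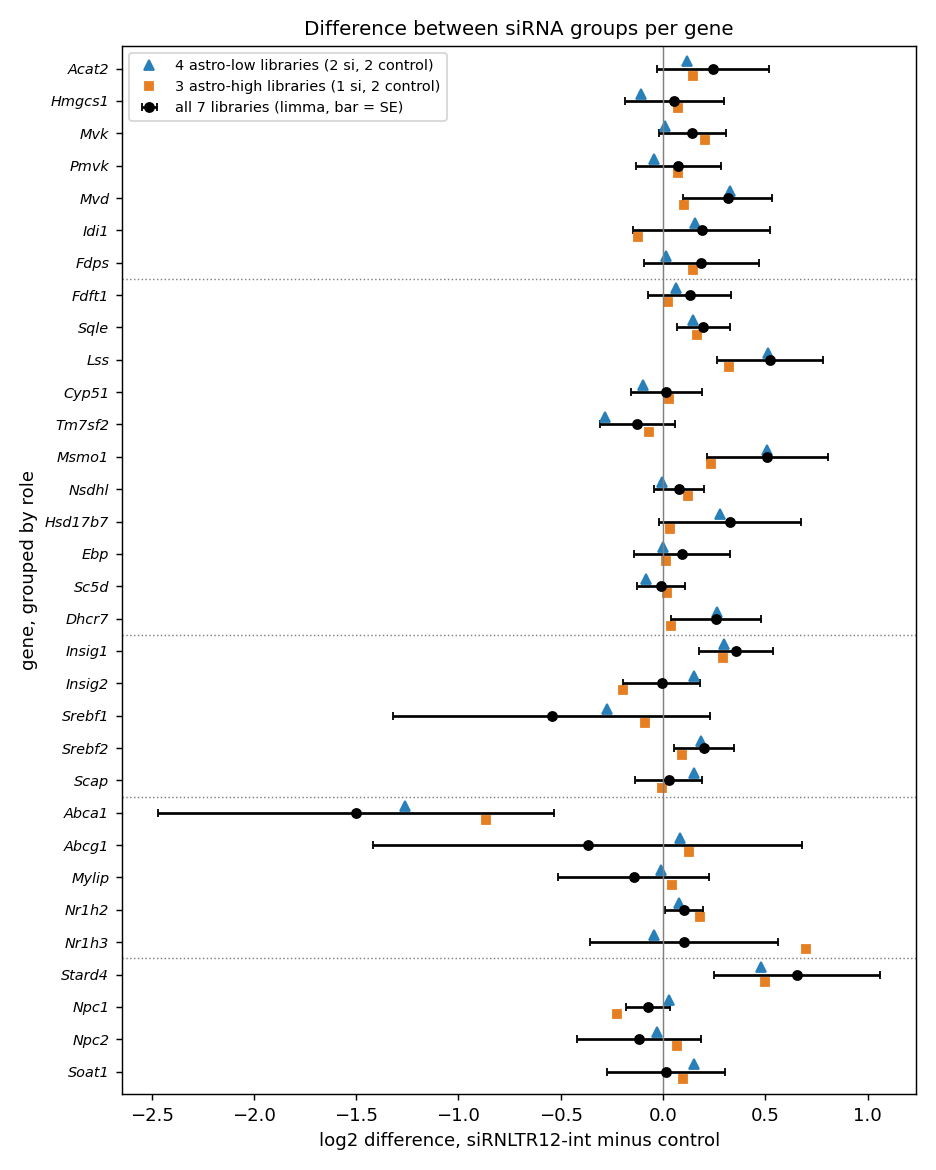
Log2 difference of siRNLTR12-int minus control for each of the 32 genes (rows, by role), from all 7 libraries with limma (black, bar = SE) and as differences of means within the 4 astro-low (triangles) and the 3 astro-high libraries (squares). Abca1 and Stard4 had the largest differences, -1.50 and 0.66, each with the same sign within both sets.

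The genes that control SREBP split between the 2 sets in both directions. Srebf1, whose protein drives fatty acid synthesis genes and which is itself an LXR target, had 9913, 2209 and 2175 normalised counts in siRNLTR12-int replicates 1 to 3 and 8099, 13696, 2485 and 2835 in control replicates 1 to 4. The 3 high values were the astrocyte-rich libraries, with a mean 4.36-fold that of the astrocyte-poor ones. Srebf2, whose protein drives the cholesterol genes, went the other way, with 17296, 23044 and 21962 after siRNLTR12-int and 16073, 16396, 19823 and 19717 in controls. Every astrocyte-poor library of Srebf2 lay above every astrocyte-rich one, at 1.27-fold. Scap, the escort protein, had 6226 to 7262 in astrocyte-poor and 7856 to 9170 in astrocyte-rich libraries. Thus 1 of 5 genes (20%) was higher and 2 of 5 (40%) lower in every astrocyte-poor library, where 17.1% and 18.6% of all genes were, too few genes to set apart from those shares.

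By siRNA, the 5 control genes had a median log2 difference of 0.03, with 3 above 0. Insig1, whose protein holds SCAP back and which is itself an SREBP target, had 10077, 13708 and 12258 normalised counts after siRNLTR12-int and 9242, 7296, 11760 and 9475 in controls. Its mean was 12014 ± 1828 (SD, n = 3) after siRNLTR12-int and 9444 ± 1828 (SD, n = 4) in controls (log2 0.36, SE 0.18, limma adjusted p = 0.854). Within the astrocyte-poor and the astrocyte-rich libraries the siRNLTR12-int values lay above the controls by 0.30 and 0.30 on the log2 scale. Srebf2 did so too, by 0.19 and 0.09, with 0.20 over all 7 libraries (SE 0.15). Srebf1 had -0.54 (SE 0.78), but -1.27 when siRNLTR12-int replicate 1 was left out and -0.087 when control replicate 2 was. Scap had 0.03 and Insig2, the other INSIG, -0.01, and both changed sign when single libraries were left out.

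Of the LXR and efflux genes, the exporters and Mylip ran opposite to the enzymes and the receptors Nr1h2 and Nr1h3 did not divide by set. In 3 of 5 (Abca1, Abcg1, Mylip), every astrocyte-poor library lay below every astrocyte-rich one, where 18.6% of all genes did. Abca1, the transporter that loads cholesterol onto lipid-poor apolipoproteins, had 11352, 1748 and 1896 normalised counts in siRNLTR12-int replicates 1 to 3 and 11443, 37274, 3199 and 5943 in control replicates 1 to 4. Values spanned 21.3-fold, the most of any member, with control replicate 2 at the top. That library also had the largest oligodendrocyte marker sum, and the part of this in the Abca1 level was not tested. Abcg1, which exports cholesterol to lipidated particles, had 627, 73.4 and 102 after siRNLTR12-int and 530.1, 620.4, 73.3 and 90.5 in controls. Its astrocyte-rich mean was 7.0-fold the astrocyte-poor mean, with no overlap of the sets.

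**Figure D3:**
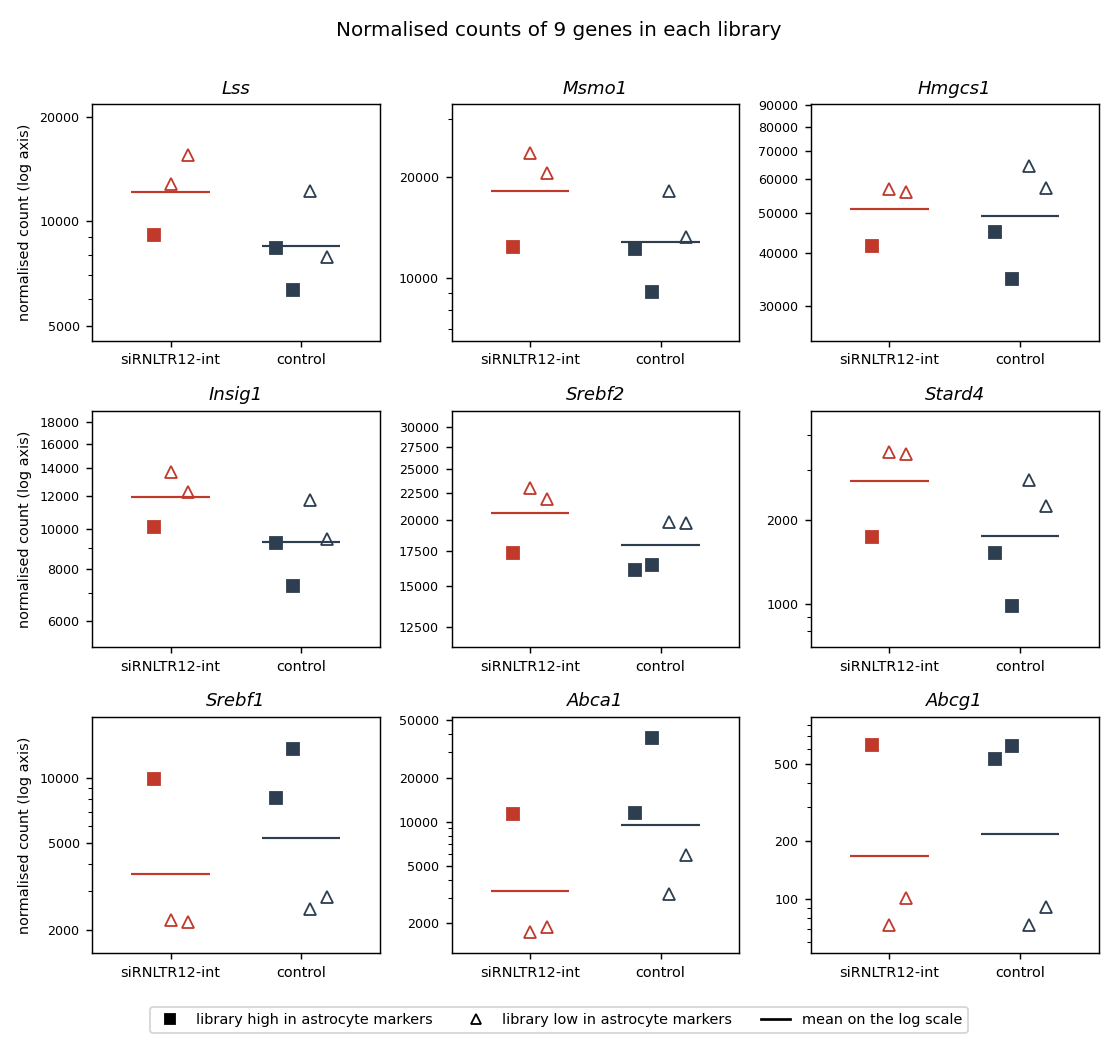
Normalised counts (log axes, which do not start at 0) of 9 genes in each library, siRNLTR12-int left and control right; filled squares are astrocyte-rich and open triangles astrocyte-poor libraries, and lines are means on the log scale. In Abcg1 the 4 astrocyte-poor libraries lie between 73.3 and 102 and the 3 astrocyte-rich ones between 530 and 627, with both siRNA groups in each range.

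Mylip, the ubiquitin ligase that LXR induces to remove lipoprotein receptors, had 418, 224 and 205 normalised counts after siRNLTR12-int and 398, 415, 189.6 and 245 in controls. Nr1h2, the broadly expressed LXR beta, varied by 1.23-fold over all libraries, with 2320, 2108 and 2009 after siRNLTR12-int and 1962, 2128, 1883 and 2014 in controls (log2 0.10, SE 0.09). Nr1h3, LXR alpha, which macrophages express strongly, had 236, 87.3 and 95.9 after siRNLTR12-int and 222, 94.3, 96.5 and 92.2 in controls. Its 2 high values came from siRNLTR12-int replicate 1 and control replicate 1, whose microglia marker sums were 22760 and 20895, against 2403 to 7036 in the other 5 libraries, and the part of microglia in this was not tested. Nr1h3 thus did not divide by astrocyte set, since control replicate 2 was low.

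Between the siRNA groups the 5 LXR and efflux genes had a median log2 difference of -0.14, with 3 below 0. Within the astrocyte-poor and the astrocyte-rich libraries the median was -0.01 and 0.13. Abca1 had 4999 ± 5503 (SD, n = 3) after siRNLTR12-int and 14465 ± 15588 (SD, n = 4) in controls, a log2 difference of -1.50 with an SE of 0.97 (limma adjusted p = 0.902). Without control replicate 2 the control mean was 6862 ± 4198 (SD, n = 3) and the log2 difference -0.84. In the astrocyte-poor libraries Abca1 had 1748 and 1896 after siRNLTR12-int, against 3199 and 5943 in controls. In the astrocyte-rich ones it had 11352 after siRNLTR12-int, against 11443 and 37274. It was the 1 member below the controls in both sets (3.12% of members, 11.2% of all genes tested), though in the rich set 11352 and 11443 were close. The siRNA differences of Abcg1 and Mylip were -0.37 (SE 1.05) and -0.14 (SE 0.37), and within the astrocyte-poor set 0.08 and -0.01. That of Nr1h3 was 0.10 (SE 0.46). The signs of Abcg1, Mylip and Nr1h3 turned when single libraries were left out.

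Among the genes of transport and storage, Stard4 followed the enzymes and Npc2 and Soat1 followed the efflux genes. Stard4, a soluble sterol carrier under SREBP control, had 1726, 3500 and 3442 normalised counts in siRNLTR12-int replicates 1 to 3 and 1520, 981, 2767 and 2241 in control replicates 1 to 4. All 4 astrocyte-poor libraries lay above the 3 astrocyte-rich ones, at 2.12-fold. Its mean was 2889 ± 1008 (SD, n = 3) after siRNLTR12-int and 1877 ± 786 (SD, n = 4) in controls, a log2 difference of 0.66 with an SE of 0.41 (limma adjusted p = 0.897). The difference was 0.48 in the astrocyte-poor and 0.50 in the astrocyte-rich libraries, and 0.38 over 6 libraries without control replicate 2.

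Npc2, which hands cholesterol to NPC1 inside lysosomes, had 2814, 1705 and 1480 normalised counts after siRNLTR12-int and 2401, 2996, 1546 and 1698 in controls. Soat1, which esterifies cholesterol for storage, had 1422 to 1692 in astrocyte-poor and 1998 to 2910 in astrocyte-rich libraries. In both, every astrocyte-poor library lay below every astrocyte-rich one. Npc1, the lysosomal membrane exporter, had 5322, 6113 and 5691 after siRNLTR12-int and 5665, 6836, 5569 and 6007 in controls and did not divide by set. By siRNA the log2 differences were -0.12 for Npc2, 0.01 for Soat1 and -0.07 for Npc1, and those of Npc2 and Soat1 turned sign when single libraries were left out (Soat1 also with upper-quartile scaling, -0.0034). The median over the 4 genes was -0.03, with 2 above 0.

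**Figure D4:**
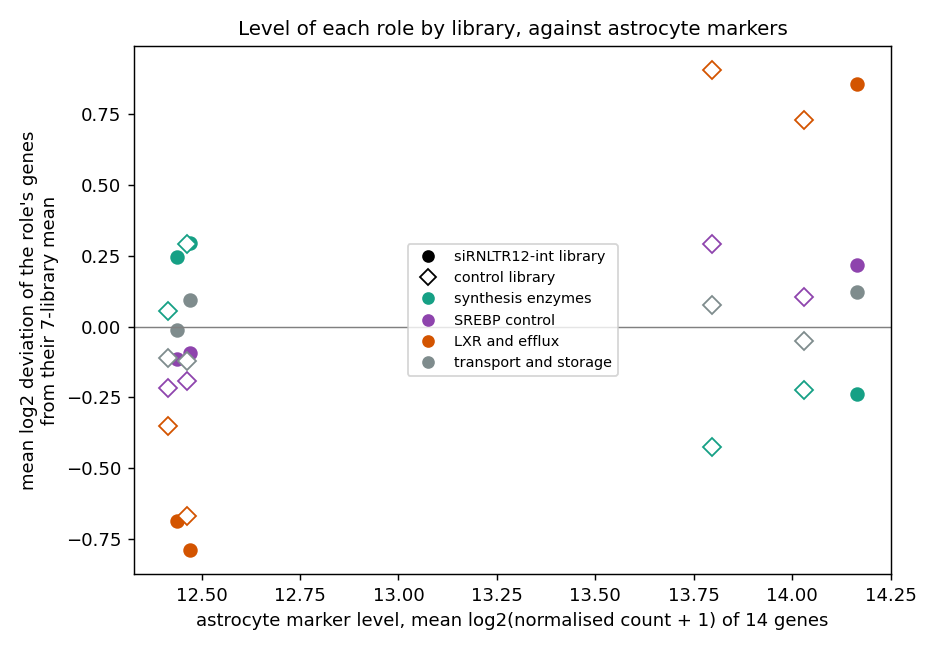
Mean log2 deviation of each role's genes from their 7-library mean (y axis), against the level of 14 astrocyte markers (x axis, mean log2(normalised count + 1)); filled circles are siRNLTR12-int and open diamonds control libraries. Synthesis enzymes lie between 0.06 and 0.30 in the 4 libraries at the left and between -0.43 and -0.23 in the 3 at the right, and LXR and efflux genes between -0.79 and -0.35 at the left and between 0.73 and 0.91 at the right.

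The siRNA comparison was also read inside the astrocyte split. Over the 32 members, 7 had every siRNLTR12-int library above the controls within both sets (21.9%, where 14.5% of all genes tested did). These were Lss, Msmo1, Sqle, Mvd, Insig1, Srebf2 and Stard4, with Msmo1 and Mvd close to a control in the astrocyte-rich set. In a limma fit of the 4 astrocyte-poor libraries alone (n = 2 against 2), 2 members passed, which is 6.25% against 7.88% of the 17947 genes tested there, so members passed no more often than genes at large. Abca1 fell by 1.26 on the log2 scale in that fit (SE 0.25, limma adjusted p = 0.0322). Stard4 rose by 0.48 (SE 0.11, limma adjusted p = 0.0448). With the split as a block in all 7 libraries, neither passed (limma adjusted p = 0.307 for Abca1 and 0.266 for Stard4). The 2 siRNLTR12-int libraries of the astrocyte-poor fit were the most alike of all pairs. Their median chi-square over genes was 1.29, against 2.72 or more in every other pair. The p-values of that fit therefore rest on a spread that may be technical.

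Further genes of the pathway were read from a list of 65, of which 63 were found and tested. With limma 0 passed. At an unadjusted p under 0.05, 1 was higher and 5 were lower with limma, where 606 and 543 of the 18225 genes tested were. The same counts of 1 and 5 came from edgeR (580 and 585 of all genes tested). They also came from DESeq2 (705 and 742 of 27902 genes), where 61 of the 63 were tested. A single gene passed in the authors' deposited table and fell there: Apod, a lipocalin made by glia, at -1.47 on the log2 scale (DESeq2 adjusted p = 0.000374). It had 745, 657 and 691 normalised counts after siRNLTR12-int and 1491, 2866, 1510 and 1882 in controls, so the groups did not overlap. Summed oligodendrocyte lineage markers were 174452 to 291269 after siRNLTR12-int and 268787 to 1039978 in controls, and their part in this difference was not tested. Its limma difference was -1.42 (SE 0.23, adjusted p = 0.647).

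In the limma fit of the 4 astrocyte-poor libraries, 9 of the 63 passed (14.3%, where 7.88% of all genes did). Of these, 5 were higher and 4 lower after siRNLTR12-int. With array weights over all 7 libraries 5 of the 63 passed, where 839 of the 18225 genes tested did. Those of the astrocyte-poor fit, named because they passed there, included the lipid droplet protein Plin2, which rose by 0.94 on the log2 scale (SE 0.09, limma adjusted p = 0.00696). The scavenger receptor Cd36 rose by 1.26, the cholesterol ester hydrolase Nceh1 by 0.58, the transporter Abca5 by 0.55 and the lysosomal lipase Lipa by 0.42. Apod fell with a log2 difference of -1.32, Fnta with -0.73, the oxysterol hydroxylase Cyp7b1 with -0.73 and Abca2 with -0.70. Limma adjusted p-values of the 9 ran from 0.00627 to 0.0485, and they too rest on the spread of 2 closely alike siRNLTR12-int libraries. With the split as a block in all 7 libraries, 0 of the 63 passed. In the astrocyte-rich set Cyp7b1 did not fall (log2 0.07, with 6147 after siRNLTR12-int against 5233 and 6543 in controls). The others of the 9 kept their sign there.

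By role, the listed gene with the smallest p was Nceh1, a cholesterol ester hydrolase, among genes of sterol transfer, with 2133, 2928 and 2521 normalised counts after siRNLTR12-int and 1854, 1685, 1992 and 1668 in controls (log2 0.48). Fnta, a farnesyl transferase subunit of the isoprenoid branch, had 3952, 4480 and 4518 after siRNLTR12-int and 4307, 8793, 7029 and 7930 in controls (log2 -0.65). Mbtps1, the protease that makes the first cut in SREBP, differed by 0.24, the oxysterol hydroxylase Cyp39a1 by -0.51 and the retinoid X receptor Rxrg by -0.30 on the log2 scale. Also lower at that unadjusted p, and named after their values were seen, were the transporter Abca2 (-0.91) and Stard3nl (-0.38). Of the 63, 8 were higher and 20 lower in every astrocyte-poor library than in every astrocyte-rich one (12.7% and 31.7%), against 17.1% and 18.6% of all genes.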

How the data were processed

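Total RNA depleted of ribosomal RNA was sequenced as directional paired-end libraries (3 siRNLTR12-int, 4 control). Salmon, DESeq2 and the build Rnor_6.0 were used, per the submitters' processing notes; versions are not given in the sources used here. The deposited values are counts per gene that the authors divided by 1 size factor per library, a normalised signal. The deposited table also holds the authors' log2 fold changes, Wald statistics (a score) and p-values, with adjusted p-values. Whole reads were recovered from the deposited values in 100% of cases (within 0.01 of 1 read's step), and no sample column went unused.

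Groups followed the sample titles. Genes whose normalised counts averaged 10 or more were tested with limma 3.58.1 (trend, two-sided) on log2(normalised count + 1) in R 4.3.3, with Benjamini-Hochberg adjustment over all of them. Fold changes are on that scale, which understates those of low genes. On the recovered reads, edgeR 4.0.16 called 0 genes and DESeq2 1.42.0 called 141. Scripts were tested on simulated data. Other alternatives changed the pseudocount, filter, scaling, variance model, block or astrocyte term, or left out 1 library. The library sets were split at the widest gap in mean astrocyte marker level. Duplicate libraries were looked for by chi-square, and none agreed within sampling noise.

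The members, roles and other lists were chosen with earlier results of these data known. Values in every library are given for the 3 members with the smallest limma p in each of 5 roles, and for Hmgcs1, Sqle, Srebf1, Srebf2, Insig1, Abca1 and Abcg1. Other pathway genes are named where they passed limma or the authors' test, or else had the smallest limma p of their role. The gene this rule picks in 1 role is not reported here. There were 33 genes without a symbol. Promoter windows matched by symbol came from RefSeq (GRCr8), with no conversion of coordinates.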

Additional observations from a re-analysis of the deposited data

Results flagged for a closer look

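Nr1h3 (LXR alpha) stood apart in 1 control library. In siRNLTR12-int libraries it had 236, 87.3 and 95.9 normalised counts. Control replicate 1 had 222 normalised counts, whereas control replicates 2 to 4 had 94.3, 96.5 and 92.2. The gap to the nearest other control was 0.967 of the whole control range, above Dixon's 95% critical value for 4 samples. The 32 members were each checked this way in the controls, and chance alone marks about 1 in 20 groups. No explanation was tested.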

How the results depend on the processing

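Over 21 alternatives, 607 of 672 gene-level differences kept their sign and side of the threshold, 63 turned sign and 2 passed where they had not. Of the 32 genes, 17 never turned. These counts overstate stability. Changing the filter or the variance trend leaves a difference as it is, so it could not turn a sign. The replicate block gave the same differences as leaving out control replicate 4. All members also began far from the threshold (smallest limma adjusted p 0.841). Genes past the test numbered 839 with array weights, 141 with DESeq2, 1415 in the astrocyte-poor libraries and 0 to 2 with 1 library left out. Members past it numbered 2 in the astrocyte-poor libraries and 0 to 0 with 1 library left out. The transport median was 0.070 with the astrocyte split as a block and 0.089 in the astrocyte-poor libraries. With 1 library left out, medians ran from 0.02 to 0.29 (synthesis), -0.04 to 0.14 (SREBP control), -0.46 to 0.11 (LXR and efflux) and -0.12 to 0.14 (transport). The cause of these shifts was not tested.

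Signs turned in the astrocyte-poor libraries for Hmgcs1 (-0.11), Pmvk (-0.046), Cyp51 (-0.10), Nsdhl (-0.0056), Insig2 (0.15), Abcg1 (0.084), Nr1h3 (-0.044) and Npc1 (0.028). With the astrocyte split as a block they turned for Hmgcs1 (-0.036), Cyp51 (-0.045), Insig2 (0.012), Abcg1 (0.10), Mylip (0.011) and Npc2 (0.011), and with the astrocyte level as a covariate for Cyp51 (-0.017) and Insig2 (0.0014). Array weights turned Cyp51 (-0.014), Insig2 (0.13), Nr1h3 (-0.10) and Soat1 (-0.015). Upper-quartile scaling turned Cyp51 (-0.0011) and Soat1 (-0.0034), edgeR Soat1 (-0.0092) and DESeq2 Soat1 (-0.010).

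With 1 library left out, ranges that crossed 0 were Hmgcs1 -0.11 to 0.20, Pmvk -0.018 to 0.20, Idi1 -0.0039 to 0.53, Cyp51 -0.10 to 0.11, Nsdhl -0.0093 to 0.12, Ebp -0.052 to 0.26, Sc5d -0.078 to 0.034, Insig2 -0.088 to 0.078, Scap -0.063 to 0.14, Abcg1 -1.32 to 0.22, Mylip -0.46 to 0.049, Nr1h3 -0.35 to 0.41, Npc2 -0.39 to 0.072 and Soat1 -0.21 to 0.22.

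Whether replicate numbers pair the libraries could not be settled. Deviations of same-numbered libraries correlated at 0.746, -0.191 and 0.632. Replicates 1 and 3 of siRNLTR12-int correlated best with the control of their own number, and replicate 2 with control replicate 3 (0.566). The libraries numbered 2 lay in different astrocyte sets and those numbered 1 and 3 in the same set, so pairing and the split cannot be told apart. With the replicate block 0 genes passed, medians were 0.22 (synthesis), -0.04 (SREBP control), -0.23 (LXR and efflux) and -0.08 (transport), and signs turned for Sc5d (0.033), Scap (-0.039), Nr1h3 (-0.011) and Soat1 (-0.087).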
